A study of Mus musculus with 12 samples.

Results

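Retinal ganglion cells are the output neurons of the retina. The 10 genes described here are used to identify these cells or to follow their axons, and were chosen by name from the 56748 genes of the table: *Rbpms*, *Thy1*, *Sncg*, *Slc17a6*, *Pou4f1*, *Pou4f2*, *Opn4*, *Nefl*, *Nefm* and *Nefh*. All 10 were present and all 10 passed the filter on low values in each comparison. RNA-seq was performed on polyribosomes immunoprecipitated from rods (Rod-TRAP, called rods below) and on the unfractionated lysate of the same kind of tissue (input, called retina below). The question was how far the ganglion cell transcripts were depleted from the rod fraction, and whether their levels differed with loss of PKM2 in rods.

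Every mouse was homozygous for RiboTag, an allele that places an HA epitope on a ribosomal protein wherever Cre is active, and every mouse carried i75-Rod-Cre, in which a rod promoter drives Cre. Control mice had 1 floxed *Pkm2* allele (*Pkm2 Rodhet*, labelled wt) and *Pkm2 Rodko* mice had both alleles floxed, so the controls also expressed Cre and were heterozygous in rods. Each of the 4 groups held 3 libraries. The age is given as 2 weeks in the series description and as 2 months in the methods. The labels do not state that each library came from a separate animal, so p-values measure the spread between these libraries. The tissue was frozen after perfusion with cycloheximide, which holds ribosomes on mRNA.

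Ganglion cell bodies lie in the innermost cell layer and send their axons through the optic nerve to the brain. The POU4F (BRN3) transcription factors act in the differentiation and survival of these neurons, RBPMS is an RNA-binding protein restricted to them among retinal neurons, and the light, medium and heavy neurofilament subunits assemble into the filaments that set the calibre of their axons. Rods are not known for these genes. In a Rod-TRAP library their reads therefore give a measured level of transcripts typical of another cell type. In the retina library they give a level over all retinal cells, and ganglion cells were not measured on their own.

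The libraries held 13458890 to 22790074 reads assigned to genes. Levels are given as CPM, the reads of a gene scaled to a common library size, after TMM scaling over all 12 libraries, which put both fractions on 1 scale. *Pkm*, whose count joins *Pkm1* and *Pkm2*, was 3730 ± 149 CPM (SD, n = 3) in control rods and 1612 ± 66.8 CPM in *Pkm2 Rodko* rods, without overlap. *Gnat1*, the rod transducin subunit, was higher in rods than in retina, as were all 10 of 10 rod genes examined, by 1.78 to 2.11 on the log2 scale in control mice.

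The proximal promoters of the paired factors *Pou4f1* and *Pou4f2* are shown because both genes mark the same cells and were low in rods together. They are the 250 bases before the RefSeq start on GRCm38.p6, 5′ to 3′ on the gene's own strand, and capitals mark matches to the GC box GGGCGG on either strand. *Pou4f1* lies on the minus strand at chr14:104468000-104468249 and *Pou4f2* on the minus strand at chr8:78436648-78436897.
Pou4f1: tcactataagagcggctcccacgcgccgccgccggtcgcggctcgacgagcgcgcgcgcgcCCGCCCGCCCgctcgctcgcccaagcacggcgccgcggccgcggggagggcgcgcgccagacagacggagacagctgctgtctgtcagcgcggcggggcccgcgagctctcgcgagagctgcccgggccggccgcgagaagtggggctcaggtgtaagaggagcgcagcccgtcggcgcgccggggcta
Pou4f2: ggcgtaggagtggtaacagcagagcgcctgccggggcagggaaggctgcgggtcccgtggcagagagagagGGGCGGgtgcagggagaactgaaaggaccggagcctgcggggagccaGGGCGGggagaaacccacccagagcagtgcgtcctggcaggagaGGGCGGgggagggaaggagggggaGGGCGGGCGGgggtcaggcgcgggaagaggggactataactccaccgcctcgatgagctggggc
Both windows were rich in G and C, at 78.0% for *Pou4f1* and 70.8% for *Pou4f2* against a median of 52.4% over 32851 promoters. The *Pou4f1* window held 2 GC box matches that overlapped each other, and the *Pou4f2* window held 5, of which the pair nearest the start overlapped. A GC box match was present in 32.7% of all promoters. The *Pou4f1* window also held 2 matches to the E-box CANNTG, which did not overlap the GC boxes and which 66.2% of promoters held, while the *Pou4f2* window held 0. Neither window held the TATA box TATAAA, which was in 12.4% of promoters. RefSeq promoter windows were matched for 5 of the 10 genes (*Opn4*, *Pou4f1*, *Pou4f2*, *Slc17a6* and *Sncg*).

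In the retina the most abundant of these transcripts by length were *Sncg*, *Nefl* and *Thy1*. On a per-length scale (RPKM, which is the TMM-scaled CPM per kilobase, with exonic lengths from GENCODE vM21), control retina gave 84.9 ± 5.45 for *Sncg* (SD, n = 3), 74.6 ± 5.75 for *Nefl* and 59.5 ± 4.47 for *Thy1*, in that order without overlap between neighbours. *Nefh* at 13.7 ± 1.501 and *Nefm* at 13.1 ± 0.155 overlapped each other. *Slc17a6* at 10.8 ± 0.776, *Rbpms* at 5.82 ± 0.314 and *Pou4f1* at 3.97 ± 0.0825 followed, each separate from the next. *Opn4* at 2.14 ± 0.630 and *Pou4f2* at 2.11 ± 0.203 were lowest and overlapped. In *Pkm2 Rodko* retina the order was the same except that *Pou4f2* stood above *Opn4*, at 2.39 ± 0.224 against 1.89 ± 0.381. These did not overlap there, whereas *Sncg* overlapped *Nefl* and *Rbpms* overlapped *Pou4f1*. The first place of *Sncg* depends on the lengths used. In CPM, control retina gave 72.3 ± 4.65 for *Sncg*, 252 ± 19.4 for *Nefl* and 178 ± 13.4 for *Thy1*.

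In control rods 4 genes formed the upper part of the order. The per-length levels there were 8.89 ± 1.08 for *Sncg*, 7.57 ± 1.57 for *Nefl*, 7.04 ± 1.08 for *Thy1* and 5.89 ± 0.766 for *Nefh*, and each of these overlapped the next. The other 6 genes were at 1.43 or below, down to 0.185 ± 0.118 for *Opn4*. On this per-length scale *Nefh* therefore stood near *Nefl* in rods, whereas in control retina it stood near *Nefm*. Before division by length, control rods gave 23.5 ± 3.06 CPM for *Nefh* and 25.6 ± 5.30 CPM for *Nefl*. Control retina gave 54.7 ± 5.99 CPM for *Nefh* and 75.5 ± 0.896 CPM for *Nefm*, without overlap, so the nearness in retina depends on the lengths used. The order in *Pkm2 Rodko* rods was the same, with *Nefh* at 5.05 ± 1.28 and *Nefl* at 6.73 ± 2.08.

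**Figure D1:**
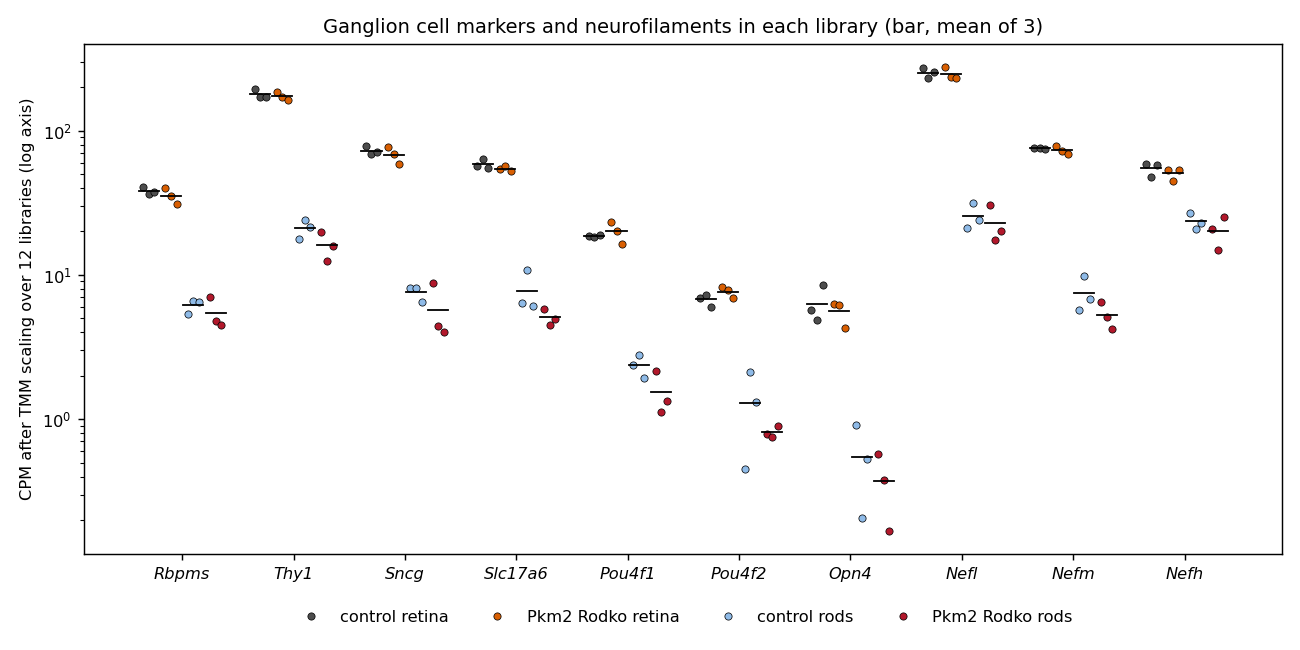
CPM after TMM scaling (log axis) of the 10 genes in each of the 12 libraries, coloured by group, with a bar at the mean of 3. For every gene the 6 rod libraries lie below the 6 retina libraries, and *Nefh* shows the smallest distance, with 14.8 to 26.8 CPM in rods and 45.0 to 58.4 CPM in retina.

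All 10 genes were lower in rods than in retina in both genotypes. In control mice the log2 ratio of rods to retina ran from -3.56 for *Opn4* to -1.22 for *Nefh*, with a median of -3.02 against -0.37 over all 25584 genes tested, and the adjusted p-values (limma, Benjamini-Hochberg) lay between 1.13e-10 and 2.91e-05. Of all genes tested, 35.5% were called lower at an adjusted p under 0.05, and 36.6% were lower without overlap between the libraries. In *Pkm2 Rodko* mice the median of the 10 genes was -3.46 against -0.32 for all genes, with adjusted p-values from 2.63e-11 to 3.06e-06, and 35.1% of all genes were called lower. The libraries of the 2 fractions did not overlap for any of the 10 genes in either genotype (36.7% of all genes in *Pkm2 Rodko* mice). Under scaling by total reads 12706 genes were lower and 2184 higher in control rods, against 9083 lower and 6001 higher after TMM, and all 10 genes were called lower under both. Between genotypes, fewer cells of a type and less RNA per cell cannot be told apart in such libraries.

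Summed over the 10 genes, control rods held 94.95, 117 and 98.1 CPM and control retina 804, 725 and 754 CPM. The sums in *Pkm2 Rodko* mice were 103, 65.8 and 81.1 CPM in rods and 799, 715 and 686 CPM in retina. All rod sums lay far below all retina sums, and the lowest single value came from the second *Pkm2 Rodko* rod library.

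*Rbpms*, the RNA-binding protein used to count ganglion cells, was 5.35, 6.60 and 6.52 CPM in control rods and 40.4, 36.5 and 37.5 CPM in control retina. Rods thus held 16.1% of the retina level, with a log2 ratio of -2.63 ± 0.161 (SE) and an adjusted p of 1.62e-09 (limma). In *Pkm2 Rodko* mice the values were 7.06, 4.81 and 4.46 CPM against 40.2, 35.0045 and 31.1 CPM, and the share was 15.4%. No rod library overlapped a retina library.

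*Thy1*, a GPI-anchored surface glycoprotein, was 17.7, 24.1 and 21.5 CPM in control rods and 194, 171 and 170 CPM in control retina. The log2 ratio was -3.08 ± 0.142 and the share 11.8% in control mice. *Pkm2 Rodko* rods were at 19.7, 12.5 and 15.9 CPM against 185, 170 and 163 CPM in retina, which is 9.30%. The fractions were separate in both genotypes.

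*Sncg*, which encodes gamma-synuclein, was 8.07, 8.14 and 6.52 CPM in control rods against 77.6, 68.9 and 70.5 CPM in control retina, with a log2 ratio of -3.25 ± 0.215. *Pkm2 Rodko* rods were at 8.79, 4.44 and 4.01 CPM against 76.4, 68.4 and 58.9 CPM. Shares of the retina level were 10.5% in control and 8.47% in *Pkm2 Rodko* mice, and the first *Pkm2 Rodko* rod library was high beside the others of its group.

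*Slc17a6*, the vesicular glutamate transporter VGLUT2 that loads synaptic vesicles in ganglion cells, was 6.35, 10.8 and 6.08 CPM in control rods and 56.9, 63.0 and 55.0 CPM in control retina. Rods held 13.3% of the retina level (log2 ratio -2.95 ± 0.173, adjusted p = 1.01e-09, limma). In *Pkm2 Rodko* mice rods were at 5.77, 4.51 and 4.90 CPM and retina at 53.9, 56.4 and 52.7 CPM, a share of 9.32%. The second control rod library was the highest rod value.

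The transcription factors *Pou4f1* and *Pou4f2* rested on few reads in rods. *Pou4f1* (BRN3A) had 26, 54 and 22 reads in control rods and 402, 365 and 472 in control retina, or 2.36, 2.78 and 1.94 CPM against 18.5, 18.2 and 19.0 CPM. Its log2 ratio was -2.96 ± 0.223 in control and -3.69 ± 0.223 in *Pkm2 Rodko* mice, where rods had 30, 15 and 24 reads and retina 473, 481 and 314. Both fractions were separate, with shares of 12.7% and 7.70%.

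*Pou4f2* (BRN3B) had 5, 41 and 15 reads in control rods and 151, 146 and 150 in control retina. In CPM these were 0.453, 2.11 and 1.32 against 6.95, 7.28 and 6.02, so the first control rod library lay well below the second. The log2 ratio was -2.56 ± 0.382 with an adjusted p of 2.91e-05 (limma). *Pkm2 Rodko* rods had 11, 10 and 16 reads against 168, 185 and 131 in retina, with a log2 ratio of -3.15 ± 0.382.

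*Opn4* encodes melanopsin, the photopigment of intrinsically photosensitive ganglion cells. It had 10, 4 and 6 reads in control rods and 123, 98 and 210 in control retina, and 8, 5 and 3 against 128, 147 and 82 in *Pkm2 Rodko* mice. The log2 ratios were -3.56 ± 0.465 and -3.83 ± 0.465, the lowest of the 10 genes in both genotypes, with the widest intervals (-4.55 to -2.57 in control mice, 95%). Expressed as CPM, control rods were at 0.907, 0.206 and 0.528 and control retina at 5.66, 4.88 and 8.43.

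*Nefl*, the light neurofilament subunit, was 21.2, 31.5 and 24.0 CPM in control rods and 270, 232 and 255 CPM in control retina. The log2 ratio of -3.32 ± 0.174 left rods with 10.1% of the retina level. In *Pkm2 Rodko* mice rods were at 30.7, 17.3 and 20.2 CPM and retina at 275, 233 and 231 CPM, a share of 9.24%. The 2 fractions were separate by a wide margin.

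*Nefm*, the medium subunit, was 5.71, 9.79 and 6.78 CPM in control rods against 76.1, 75.9 and 74.5 CPM in control retina, with a log2 ratio of -3.37 ± 0.173 and a share of 9.84%. *Pkm2 Rodko* rods were at 6.49, 5.12 and 4.18 CPM and retina at 77.7, 72.5 and 68.5 CPM, with a share of 7.21%. In GENCODE vM21 *Nefl* and *Nefm* lie on opposite strands of chromosome 14 and share 1108 exonic bases, so reads from that stretch may not be separable, since the strand setting of the counting is not given in the sources used here.

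*Nefh*, the heavy subunit, whose long tail domain is phosphorylated in mature axons, was the least depleted. It was 26.8, 20.8 and 22.9 CPM in control rods and 58.4, 47.7 and 57.8 CPM in control retina, a share of 43.0% and a log2 ratio of -1.22 ± 0.159 (95% interval -1.55 to -0.88, adjusted p = 7.40e-06, limma). *Pkm2 Rodko* rods were at 20.6, 14.8 and 25.0 CPM and retina at 53.2, 45.0 and 53.1 CPM, a share of 39.9% and a log2 ratio of -1.35 ± 0.159. Both fractions were separate, but the *Nefh* interval did not meet that of any other gene of the 10 in either genotype. With scaling by total reads the share was 29.3% in control mice, against 5.84% to 13.2% for the other 9 genes. *Nefh* lies on chromosome 11 and overlapped no other annotated gene.

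**Figure D2:**
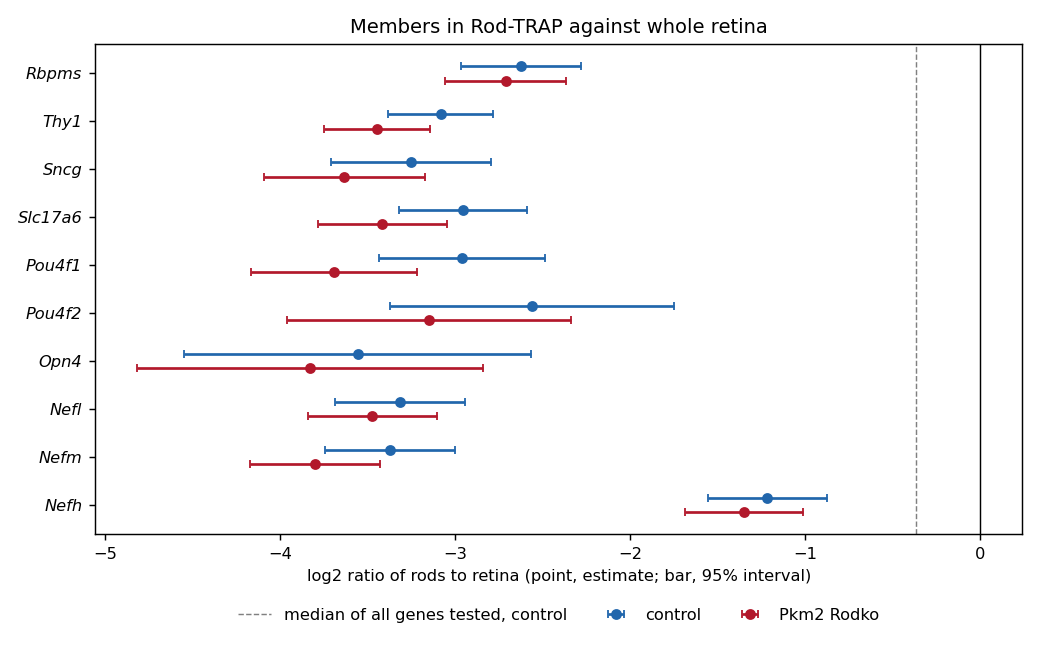
Log2 ratio of rods to retina (x axis, limma estimate with 95% interval) for each gene in control (blue) and *Pkm2 Rodko* mice (red), with the median of all genes in control mice as a dashed line at -0.37. Of the 10 genes, 9 lie between -3.83 and -2.56 and *Nefh* lies at -1.22 and -1.35.

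Rod and retina libraries of the same genotype and number were also compared as pairs. *Nefh* in rods was 46.0%, 43.6% and 39.6% of its retina level in the 3 control pairs and 38.8%, 32.9% and 47.1% in the *Pkm2 Rodko* pairs. In none of the 6 pairs did another gene of the 10 exceed 29.0%, which was *Pou4f2* in the second control pair. Among all genes tested, ordered from the most depleted, *Nefh* stood at percentile 31.8 in control mice and 29.5 in *Pkm2 Rodko* mice, and the other 9 genes stood between 2.13 and 13.6 in control and between 1.65 and 13.5 in *Pkm2 Rodko* mice.

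Ratios of reads within a library need no scaling between libraries. *Nefh* gave 1.26, 0.661 and 0.952 reads per *Nefl* read in the control rod libraries and 0.671, 0.857 and 1.24 in the *Pkm2 Rodko* rod libraries. In retina the ratio was 0.216, 0.206 and 0.227 in control and 0.194, 0.193 and 0.230 in *Pkm2 Rodko* mice. Every rod library exceeded every retina library, and the ratio in rods was more variable than in retina. Its geometric mean was 4.29-fold higher in control rods and 4.36-fold higher in *Pkm2 Rodko* rods than in retina. With 3 against 3 libraries an exact two-sided permutation test cannot go below p = 0.1, which each genotype gave. Within the 6 pairs of rod and retina libraries the ratio was higher in rods in 6 of 6, and an exact two-sided sign-flip permutation test gave p = 0.0312, the smallest that 6 pairs allow. After Benjamini-Hochberg adjustment over 9 ratios, which were chosen with the values known, this permutation p was 0.0703 and did not pass.

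*Nefm* per *Nefl* read overlapped between the fractions. It was 0.287 ± 0.0214 in control rods and 0.301 ± 0.0243 in control retina (SD, n = 3), and 0.238 ± 0.0501 and 0.297 ± 0.0142 in *Pkm2 Rodko* mice. It was lower in rods in 6 of 6 pairs, by 0.20 ± 0.213 on the log2 scale (SD of the pairs), with the same exact permutation p of 0.0312 (adjusted p = 0.0703). *Nefh* per *Nefm* read was 4.48-fold higher in control rods and 5.51-fold higher in *Pkm2 Rodko* rods than in retina, again without overlap and in 6 of 6 pairs (exact permutation p = 0.0312, adjusted p = 0.0703). *Rbpms* per *Thy1* read was the other ratio that was separate, at 0.293 and 0.341 in control and *Pkm2 Rodko* rods against 0.214 and 0.205 in retina, or 1.37-fold and 1.65-fold higher, in 6 of 6 pairs (exact permutation p = 0.0312, adjusted p = 0.0703). The remaining 5 ratios, which set *Thy1*, *Sncg*, *Slc17a6*, *Pou4f1* and *Pou4f2* against another of these genes, had adjusted p-values between 0.321 and 0.500 in the paired exact permutation test. No ratio differed between genotypes beyond the spread between libraries (exact permutation p of 0.2 or more, where 0.1 is the smallest possible).

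**Figure D3:**
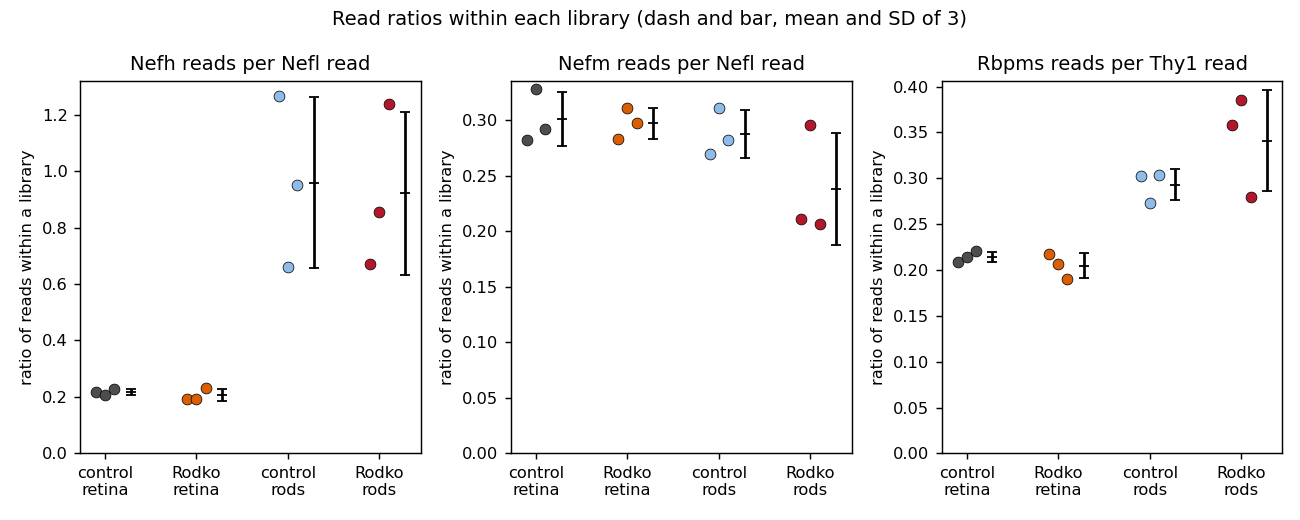
Reads of 1 gene per read of another within each library (y axis), by group, with the mean and SD of 3 beside the points. The 6 rod libraries span 0.661 to 1.26 *Nefh* reads per *Nefl* read and the 6 retina libraries 0.193 to 0.230, whereas *Nefm* per *Nefl* read overlaps between the fractions.

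Other genes of ganglion cells and axons were compared with the 10 genes in the same fit. Of 10 further ganglion cell transcription factors, 9 were lower in control rods, with a median log2 ratio of -2.89. *Pou4f3* at -3.19 was the lowest, while *Tbr1* at -2.60 and *Atoh7* at -0.01 were the highest. *Atoh7*, which acts early in the specification of ganglion cells, had only 1 to 6 reads in control rods and 3 to 6 in control retina, too few to show a difference. *Isl1* was lower at -2.82 ± 0.130.

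Of 10 genes of ganglion cell subtypes and surfaces, 8 were lower and 1 was higher in control rods. *Spp1*, a marker of alpha ganglion cells, and *Chrna6*, a nicotinic receptor subunit, were lowest at -3.66 and -3.49. *Mmp17* at 0.05 ± 0.116 was not called, and *Jam2*, which marks a direction-selective type, was higher in rods at 233 ± 11.4 CPM against 150 ± 12.3 CPM (SD, n = 3), a log2 ratio of 0.64 ± 0.081. Under scaling by total reads *Jam2* in control rods was at 106% of its retina level and *Mmp17* at 70.4%. The size of both differences therefore depended on the scaling.

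Of 10 axonal and cytoskeletal genes, 9 were lower in control rods, with a median of -2.91. *L1cam*, an axonal adhesion molecule, was lowest at -3.29, and *Ina*, the internexin that co-assembles with neurofilaments, was at -3.27, close to *Nefl* and *Nefm*. *Tubb3*, the neuronal beta-tubulin, was at -1.06 ± 0.110, or 48.3% of retina, near *Nefh*. *Map1b*, a microtubule-associated protein, had the most reads of the list and was not called, at 697 ± 54.2 CPM in control rods and 609 ± 77.3 CPM in control retina (log2 ratio 0.20 ± 0.167). Under scaling by total reads *Map1b* in control rods was at 78.3% of its retina level.

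Relatives of the 10 genes were less uniform. *Slc17a7* (VGLUT1), the vesicular glutamate transporter of photoreceptors and bipolar cells, was 4388 ± 611 CPM in control rods and 1720 ± 73.5 CPM in control retina, a log2 ratio of 1.34 ± 0.099, whereas its relative *Slc17a6* fell to 13.3%. *Sncb* (beta-synuclein) was not called, at 98.6% of retina, whereas *Sncg* was at 10.5%. Under scaling by total reads these shares were 67.0% and 7.16%. *Gfap*, the intermediate filament of astrocytes and reactive Müller glia, was at -3.36 and *Slc17a8* (VGLUT3) at -2.83. *Opn5* had 0 to 2 reads in every library and was not tested, which left 7 of 8 genes, 5 lower and 1 higher.

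Markers of other retinal cells were also depleted from control rods. In control mice the median log2 ratio was -2.77 for 10 amacrine cell genes (10 called lower), -3.13 for 10 bipolar cell genes (9 called lower) and -2.91 for 8 Müller glia genes (8 called lower). Smaller lists of 4 horizontal cell, 4 astrocyte, 6 endothelial and 6 microglia genes had medians of -3.32, -2.80, -2.96 and -3.09, with 4, 3, 6 and 6 called lower. Of 6 oligodendrocyte genes 5 were tested and were lower, with a median of -2.08, and *Mobp* had 0 reads in every library. The median of the ganglion cell and neurofilament genes, -3.02, stood within the range of these lists. Whether reads from other cells account for the ganglion cell reads in rods was not tested.

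**Figure D4:**
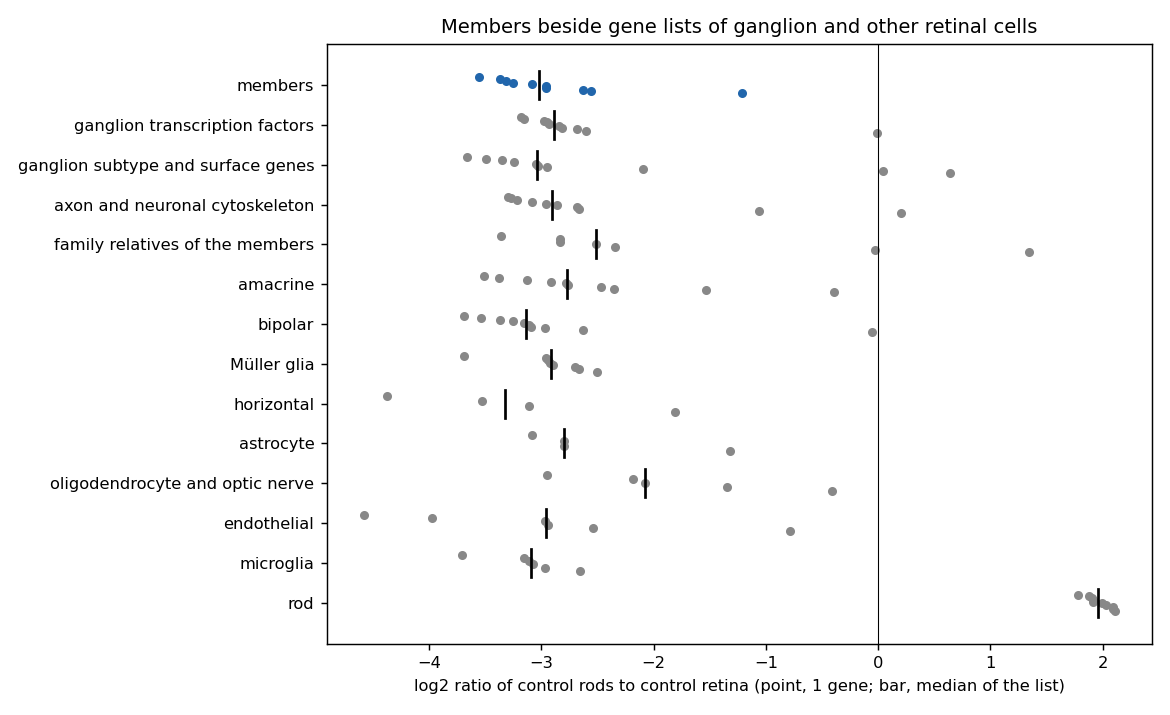
Log2 ratio of control rods to control retina (x axis) for each gene of 14 lists, with a bar at each median. The 10 genes (top row, labelled members) have a median of -3.02, the lists of other cell types lie at medians between -3.32 and -2.08, and the rod genes lie at a median of 1.96.

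No gene of the 10 differed between *Pkm2 Rodko* and control rods at the adjusted threshold. Among all genes 0.0194% of the 20658 genes tested in rods were called lower (limma), which is 4 genes, and 0 were called higher. All 10 log2 fold changes were below 0, with a median of -0.40 against 0.01 over all genes, and 48.9% of all genes were below 0. The adjusted p-values of the 10 genes lay between 0.932 and 0.947, and edgeR and DESeq2 called none of them either. Unadjusted p-values were under 0.05 for *Slc17a6* and *Thy1*, 2 of 10 genes, where 3.41% of all genes were lower at that level. The direction of *Pou4f2* turned to 0.06 without the second control rod library, and that of *Opn4* to 0.03 without the first.

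*Slc17a6* was the gene of the 10 without overlap in rods, at 6.08 to 10.8 CPM in control and 4.51 to 5.77 CPM in *Pkm2 Rodko* rods (5.40% of all genes were lower without overlap). Its log2 fold change was -0.55 ± 0.236 (95% interval -1.06 to -0.04, adjusted p = 0.932, limma), and it was -0.29 without the second control rod library. For *Thy1* the fold change was -0.40 ± 0.173, with overlapping libraries. *Pou4f1* was at -0.62 ± 0.326 (95% interval -1.32 to 0.08). *Nefl* at -0.18 ± 0.197, *Rbpms* at -0.19 ± 0.217 and *Nefh* at -0.24 ± 0.176 had intervals that included 0, as did *Nefm* and *Sncg*, both at -0.47. Leaving out 1 library moved *Nefl* between -0.42 and -0.01, *Rbpms* between -0.38 and -0.06 and *Nefh* between -0.41 and -0.04, with the values nearest 0 without the second *Pkm2 Rodko* rod library for *Nefl* and *Nefh* and without the third for *Rbpms*. The intervals of *Pou4f2* (-1.46 to 0.66) and *Opn4* (-1.66 to 0.87) were the widest, and their rod libraries held 3 to 41 reads. The intervals of *Pou4f1*, *Slc17a6* and *Sncg* also reached below -1.

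Markers of other cell types mostly moved in the same direction in rods, but not in every list. The median log2 fold change was -0.35 for Müller glia genes (8 of 8 below 0), -0.46 for bipolar cell genes (9 of 10), -0.58 for amacrine cell genes (8 of 10) and -0.42 for further ganglion cell transcription factors (8 of 10), and none was called. Below 0 were also 4 of 4 astrocyte, 5 of 6 microglia and 9 of 10 axonal and cytoskeletal genes. Less uniform were the lists of horizontal cell genes (2 of 4 below 0), endothelial genes (3 of 5), oligodendrocyte genes (2 of 3) and ganglion subtype and surface genes (7 of 10). Rod genes had a median of 0.05, with 9 of 10 above 0. In retina the medians were -0.15 for Müller glia genes (8 of 8 below 0) and -0.23 for bipolar cell genes (10 of 10). There they were -0.04 for amacrine cell genes (6 of 10 below 0) and 0.08 for rod genes (9 of 10 above 0), and none was called. Summed Müller glia genes were 490 to 634 CPM in control and 420 to 502 CPM in *Pkm2 Rodko* rods, summed amacrine cell genes 156 to 192 and 147 to 156 CPM, and summed bipolar cell genes 340 to 414 and 303 to 398 CPM. Among the rod libraries the second control library, the deepest of the 12, had the highest sum of the 10 genes and also of the amacrine and bipolar genes. The summed Müller glia genes were highest in the third control rod library, at 634 against 623 CPM in the second. The part of other cells' reads in these values was not tested.

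In the retina the genotypes were close. None of the 10 genes was called, with adjusted p-values of 0.947 to 0.983 (limma), and 0 had an unadjusted p under 0.05 (2.06% of all genes were lower at that level). By limma, 0.00391% of 25590 genes were called lower, which is 1 gene. The median log2 fold change was -0.06, with 8 of 10 genes below 0 (51.0% of all genes), and no gene was without overlap (4.76% of all genes were lower and 4.53% higher without overlap). *Pou4f1* at 0.11 ± 0.121 and *Pou4f2* at 0.20 ± 0.145 were the ones above 0. The neurofilament genes were within 0.10 of 0, at -0.02 ± 0.084 for *Nefl*, -0.04 ± 0.075 for *Nefm* and -0.10 ± 0.101 for *Nefh*. The 95% interval of *Nefl* ran from -0.20 to 0.16, that of *Thy1* from -0.19 to 0.14 and that of *Opn4* from -0.61 to 0.33.

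**Figure D5:**
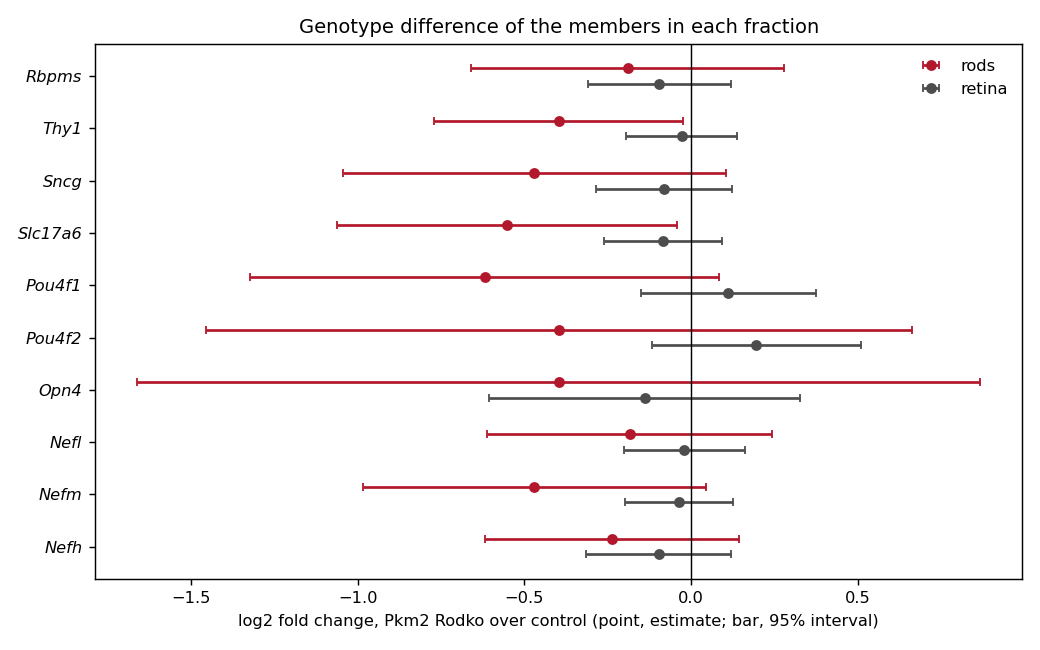
Log2 fold change of *Pkm2 Rodko* over control (x axis, limma estimate with 95% interval) for each gene in rods (red) and in retina (grey). All 10 estimates in rods are below 0 and their intervals are wider than those in retina, where 8 of 10 are below 0.

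The difference between the genotype effects of rods and retina was tested in the fit of all 12 libraries. No gene of the 10 passed, nor did any other gene tested (0% of 25584 genes by limma, with 4.41% at an unadjusted p under 0.05, and 0 by edgeR). The estimates of the 10 genes were all below 0 (49.2% of all genes), with a median of -0.37. *Pou4f1* was at -0.73 ± 0.315 and *Pou4f2* at -0.59 ± 0.540, both with an adjusted p of 0.978 by limma, and by edgeR they were at -0.78 and -0.97. The estimates of *Rbpms*, *Nefl*, *Nefh* and *Opn4* turned above 0 when 1 library was left out.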

How the data were processed

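RNA-seq of 3 libraries in each of 4 groups was analysed, with groups taken from the sample labels. The values deposited by the authors are a scaled signal for every gene in each library, made by dividing its reads by a size factor of the median-of-ratios kind, set within each fraction. Their processing notes name CASAVA 1.8.2, HISAT2, GRCm39, DESeq2 and edgeR with no role, and the counter, annotation and strand setting are not given in the sources used here. Dividing the deposited signal by the value of 1 read gave whole reads for 100% of positive values. All per-sample columns were used.

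Genotypes were compared within a fraction by limma 3.58.1 (R 4.3.3, variance trend) on log2(value + 1), keeping genes whose mean reached 1 in any group. Rods and retina, and the interaction, were compared in 1 limma fit of 12 libraries on reads scaled by TMM (edgeR 4.0.16). Fold changes are on this log2(value + 1) scale and understate changes of low genes. P-values were adjusted by Benjamini-Hochberg over all genes tested at 0.05. DESeq2 1.42.0 and edgeR quasi-likelihood on the reads were alternatives, and the scripts were tested on simulated data. Read ratios were compared by exact permutation tests over libraries and, added after seeing the data, by exact sign-flip tests within pairs. Python 3.11.15 drew the figures. Shares of the retina level are ratios of group mean CPM.

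The 10 genes and the lists were chosen with earlier results of these data known. Besides the 10 genes, the text names *Pkm*, *Gnat1*, the 2 highest, the 2 lowest and the most abundant genes of the ganglion, axon and family lists, any list gene called between genotypes (none was), and the 5 genes most like the 10 by correlation. *Opn5* and *Mobp* fall outside this rule and were named after their values were seen. Some genes that the rule names are not reported here.

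Replicate libraries differed by more than sampling noise (chi-square per gene of 7.16 to 27.1). Rod and retina libraries of the same genotype and number deviated together (correlations of 0.260 to 0.547) and were taken as pairs. Genotypes with the same number did not pair.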

Additional observations from a re-analysis of the deposited data

How the results depend on the processing

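The 10 genes were lower in rods than in retina in 118 of 118 alternative values in each genotype, with adjusted p-values up to 0.000341 in control and 5.76e-05 in *Pkm2 Rodko* mice. *Pou4f2* and *Opn4* could not be tested at 10 reads or more in every library, and 8 of 8 others were then called. The share of all genes called lower under that filter is not given here, so this count has no background beside it. The rod and retina pairing entered as a replicate block gave 15630 genes in control and 15610 in *Pkm2 Rodko* mice against 15084 and 15100 without it, and it changed no call of the 10 genes. Over all genes, the genes higher in rods fell from 6001 to 2184 by total reads and 1942 on deposited values (control), and from 6108 to 2198 and 2076 (*Pkm2 Rodko*, where 8992 lower genes became 12648 and 12814; 13144 on deposited values in control). The median of all genes in control rods moved from -0.37 to -0.76 and -0.80. With 10 reads or more in every library, 9526 genes (3614 lower, 5912 higher) were called in control mice. In *Pkm2 Rodko* mice 9651 (3586 lower, 6065 higher) were called. This filter asks for reads in every rod library, and the median of all genes was then 0.24 in control and 0.26 in *Pkm2 Rodko* mice. Leaving out 1 library gave 13954 to 14636 genes in control and 13922 to 14410 in *Pkm2 Rodko* mice.

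In no genotype alternative was any of the 10 genes called. The 4 genes called in rods became 7 by DESeq2, 8 (4 higher) with the replicate number as a block, and 17 (all lower) in 1 fit of 12 libraries, and 2 to 6 without 1 library (2 to 4 lower, 0 to 4 higher). The cause was not tested. These numbers did not pair the genotypes (correlations of -0.303 to 0.0405), and no control library correlated best with the *Pkm2 Rodko* library of its own number. The 1 gene called in retina became 0 with 10 reads or more, 0 with the block, and 0 to 4 without 1 library (0 to 2 lower, 0 to 4 higher). Directions of the 10 genes turned only when 1 library was left out. In rods these were *Pou4f2* (-0.97 to 0.058) and *Opn4* (-0.89 to 0.026). In retina they were *Thy1* (-0.073 to 0.028, also 0.00291), *Sncg* (-0.16 to 0.00919), *Nefl* (-0.096 to 0.026, also 0.019 and 0.018), *Nefm* (-0.076 to 0.000195) and *Opn4* (-0.30 to 0.088, also 0.031). In the interaction they were *Rbpms* (-0.31 to 0.049, also 0.00796), *Nefl* (-0.41 to 0.028, also 0.017), *Nefh* (-0.30 to 0.081) and *Opn4* (-0.76 to 0.15). *Pou4f2* and *Opn4* in rods rested on 3 to 41 reads, and depth and the spread between libraries were not separated for them. By edgeR *Pou4f2* was at -0.71 and *Pou4f1* at -0.61 in rods, against -0.40 and -0.62 by limma.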

Other observations

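The genes whose levels ran most like the mean of the 10 genes were listed as a description. Over the 12 libraries, which fall into rods and retina, the highest Pearson correlations among 14947 genes were those of *Calb2*, the calretinin of amacrine and ganglion cells (r = 0.999), *mt-Cytb*, *Gm29216*, *mt-Co3* and *Gm28437* (r = 0.999 for all 4), and 2912 genes reached 0.95. *Calb2* was at 274 CPM in control retina and 25.6 CPM in control rods, and the mitochondrial *mt-Cytb* at 8158 and 440.0 CPM. Sequences like those of the mitochondrial genes can share reads with them, so *Gm29216* and *Gm28437* are uncertain. Over the 6 retina libraries centred by genotype, the highest were *Cdk9* (r = 0.999), *Rpl27-ps3* (0.997), *4833439L19Rik* (0.997), *Zfand2b* (0.996) and *Csrp2* (0.994), with 135 genes at 0.95 or above. These 6 points share their scaling and carry few degrees of freedom.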
